A study of Mus musculus with 8 samples.

Results

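The accessible chromatin around the AP-1 and Atf3 transcription factor genes was examined in mouse retinal ganglion cells (RGCs) after optic nerve crush (ONC). The set held 10 of the 21887 protein-coding genes of the annotation, namely Atf3, Jun, Junb, Jund, Fos, Fosb, Fosl1, Fosl2, Batf and Maff. Its members were all peaks that overlapped 1 of these genes or the 20 kb on either side of it, in the mouse build GRCm38. Overlapping peaks of the 8 ATAC-seq lists (at least 1 bp in common) were joined, which gave 91 regions in the 10 windows among 189914 regions in all. ATAC-seq marks open DNA by the insertion of a transposase, and a peak is a stretch where insertions pile up over the background of the same library. Adult C57BL/6J mice were injected in the eye with an AAV2 virus that expressed GFP as the control (3 lists), Ezh2 (3 lists) or Ezh2-Y726D (2 lists). Ezh2 is the subunit of the Polycomb repressive complex that methylates histone H3 at lysine 27, and Ezh2-Y726D is a form of it whose catalytic activity is lost. All 3 groups had their optic nerve crushed 2 weeks after the injection, and 50000 live cells that carried CD90.2, the product of Thy1, were sorted for each library 3 days after the crush. No uninjured sample was used here, the sort enriches RGCs without excluding other CD90.2-positive cells such as T cells, and the sources used here do not say which promoter drove the transgene or whether a library pooled several eyes.

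The lists held 112939 to 135895 peaks, with no read numbers, so that sequencing depth is unknown. The Ezh2 gene itself held 4 to 6 peaks in the GFP lists, 9 to 10 in the Ezh2 lists and 4 in each Ezh2-Y726D list. The paper reports that both forms were overexpressed in RGCs, and the source of these peaks was not tested. Of 15 RGC marker genes, 13 to 14 had a peak within 1 kb of a gene end in every list, Thy1, Rbpms and Pou4f1 among them. Both Ezh2-Y726D lists stood apart in the markers of white blood cells. Of 20 T cell markers, 17 to 20 had such a peak in the GFP lists, 20 in each Ezh2 list and 9 and 8 in the Ezh2-Y726D lists. Of 20 markers of microglia and macrophages, 12 to 16 had one in the GFP lists, 14 to 16 in the Ezh2 lists and 5 in each Ezh2-Y726D list. Their summed fold over background, a ratio to the local background of the library, ranged from 69.8 to 88.9 in the GFP lists, from 85.7 to 94.1 in the Ezh2 lists and from 47.9 to 50.8 in the Ezh2-Y726D lists. For the T cell list the same sums were 97.5 to 115, 108 to 124 and 45.7 to 51.2. Cd8a, Ptprc and Cx3cr1, which mark cytotoxic T cells, white blood cells and microglia, each had a peak in all 6 GFP and Ezh2 lists but in no Ezh2-Y726D list. Other markers of these lists, named after their values were seen, went differently. P2ry12 had a peak in all GFP and both Ezh2-Y726D lists but in no Ezh2 list, and Cd3e, Cd4 and Spi1 had one in every list. Of 15 Müller glia markers 13 were so marked in every list, and of 15 rod markers 14 were in each GFP list, 12 to 13 in the Ezh2 lists and 11 and 14 in the Ezh2-Y726D lists. Ranks at gene starts, tested as described below, did differ. Of 7 Müller glia starts tested, 3 were called higher with Ezh2 than with Ezh2-Y726D, beside 2.49% of 10068 gene starts. Of 7 RGC starts tested, 1 was called, that of Pou4f1. It was lower with Ezh2-Y726D than with GFP (limma adjusted p = 0.0267), beside 1.08% of gene starts. It was also higher with Ezh2 than with Ezh2-Y726D (limma adjusted p = 0.00305).

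AP-1 is a family of transcription factors that bind DNA as pairs of basic leucine zipper proteins. Commonly, though not always, one is from the Jun family and one from the Fos, Atf or Batf family. Atf3 belongs to the related ATF/CREB family and pairs with Jun. After axon injury, stress kinases of the JNK pathway phosphorylate Jun in the cell body, and Jun and Atf3 are among the genes that injured RGCs switch on, both on the way to cell death and in neurons that regrow axons. Most of these genes are immediate early genes, whose starts lie in open chromatin before any stimulus.

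Promoters are shown for Jun and Maff, because they were the only members with a full match to one of the patterns searched for sites of these factors, and for Batf, because it was the member whose start had no peak with Ezh2-Y726D. The sequences are the 250 bases before the start in RefSeq on GRCm38.p6, 5′ to 3′ on the strand of the gene, with the match in capitals. They lie at chr4:95052223-95052472, minus strand, at chr15:79347270-79347519, plus strand and chr15:79348152-79348401, plus strand for starts 2 and 3 of the 3 annotated Maff starts, and at chr12:85686470-85686719, plus strand.
Jun: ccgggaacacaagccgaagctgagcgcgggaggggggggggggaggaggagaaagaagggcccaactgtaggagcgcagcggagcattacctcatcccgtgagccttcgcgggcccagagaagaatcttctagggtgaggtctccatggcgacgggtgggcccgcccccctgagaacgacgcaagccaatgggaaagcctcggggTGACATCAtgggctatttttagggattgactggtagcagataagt
Maff, start 2: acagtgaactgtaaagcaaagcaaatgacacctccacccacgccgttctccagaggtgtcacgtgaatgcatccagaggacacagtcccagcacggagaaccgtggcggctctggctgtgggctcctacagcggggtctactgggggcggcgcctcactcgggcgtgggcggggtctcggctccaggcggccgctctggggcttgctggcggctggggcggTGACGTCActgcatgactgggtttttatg
Maff, start 3: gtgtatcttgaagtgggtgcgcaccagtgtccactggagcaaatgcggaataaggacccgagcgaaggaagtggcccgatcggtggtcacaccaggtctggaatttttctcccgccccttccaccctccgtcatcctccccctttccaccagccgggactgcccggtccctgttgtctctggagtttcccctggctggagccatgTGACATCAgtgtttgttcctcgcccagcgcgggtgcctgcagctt
Batf: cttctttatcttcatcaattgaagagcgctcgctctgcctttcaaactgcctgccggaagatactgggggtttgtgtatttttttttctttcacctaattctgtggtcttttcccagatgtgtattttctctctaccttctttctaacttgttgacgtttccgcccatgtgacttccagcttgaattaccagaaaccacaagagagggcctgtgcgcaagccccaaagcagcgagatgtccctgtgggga
Of the 10 genes, 9 were in the promoter table, with 11 promoters. The AP-1 site was searched as TGANTCA, which reads the same on both strands, and the CRE-like site as TGACNTCA or, for the other strand, TGANGTCA. TGANTCA stood in 6.13% of 21263 promoters and in 0 of the 11 promoters of these genes, and the CRE-like pattern stood in 7.25% of all promoters and in 3 of theirs. The match began 45 bases before the start in Jun, 29 bases before Maff start 2 and 45 bases before Maff start 3. These are matches of letters, not measured sites. The Batf promoter was 46.4% G and C with 7 CpG, below the lower quartile of 47.2% over all promoters, whereas the Jun promoter was 61.2% G and C with 15 CpG, and the Atf3 promoter 65.2% with 24 CpG, where the median of all promoters was 55.6% and 10.

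Of the 9 genes with a gene-start region, 8 had it in every list. Differences between groups occurred at starts, those of Junb and Batf, and away from them, where most of the 91 regions lay. Among the regions in all lists, the largest difference was at a region before Fosb, which ranked highest with Ezh2-Y726D and lowest with Ezh2. Presence of peaks differed most at Atf3 and Batf, both of which had fewer peaks with Ezh2-Y726D than with Ezh2 and no overlap between these groups. The same was true of 21.8% of all genes. For Atf3 it held in the window of 20 kb but not in the gene alone. Of the 91 regions, 48 (52.7%) had a peak in all 8 lists, against 36.6% of all merged regions. A peak in 1 list only was found in 3 (3.30%), against 17.2% of all merged regions. Such regions can be neither gained nor lost as counted below, so they lower the shares over all regions more than those of the windows. The 10 windows together held 70, 76 and 79 peaks in the GFP lists, 78, 77 and 76 in the Ezh2 lists and 68 and 70 in the Ezh2-Y726D lists.

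For the 48 regions in all lists, the fold of each peak was ranked within its list, the ranks were expressed as normal scores (SD units of a normal curve), and groups were compared with limma over all 69493 such regions, with a call at an adjusted p under 0.05. Ezh2 against GFP gave 1 call, which was lower (2.08% of the 48, beside 4.44% over all regions in either direction and 2.84% lower). Ezh2-Y726D against GFP gave 2 calls, both higher, or 4.17%, beside 8.21% over all regions in either direction and 3.55% higher. Ezh2 against Ezh2-Y726D gave 5 calls, all lower with Ezh2, or 10.4%, beside 14.0% over all regions in either direction and 6.96% lower. The median difference over the 48 regions was -0.11, 0.07 and -0.13 for the 3 comparisons, beside 0.01, -0.01 and 0.02 over all regions. In either direction the share of calls was below that of all regions in each of the 3 comparisons, while the share called lower with Ezh2 than with Ezh2-Y726D was above that of all regions. These directions depended on the settings. Ranked by −log10 p, Ezh2 against Ezh2-Y726D gave 3 regions higher and 1 lower with Ezh2. Over all 69493 regions that ranking gave 5885 higher and 3979 lower, where the main ranking gave 4862 and 4837. In windows of 50 kb, which held 99 regions in all lists, this comparison gave 6 higher and 8 lower. Ezh2-Y726D against GFP gave 4 higher and 6 lower in windows of 50 kb, where all regions gave 2469 higher and 3233 lower. Over regions in at least 5 lists it gave 1 higher and 1 lower, beside 1466 higher and 3719 lower among all 97985 such regions. The lower one over regions in at least 5 lists lay 15.5 kb before Batf and had a peak in 1 Ezh2-Y726D list only. Group ranks were free of overlap in 12, 16 and 31 of the 48 regions, beside 24.0%, 41.5% and 47.5% of all regions, in the same order of comparisons. The comparisons share samples, so that their calls are not independent.

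**Figure D1:**
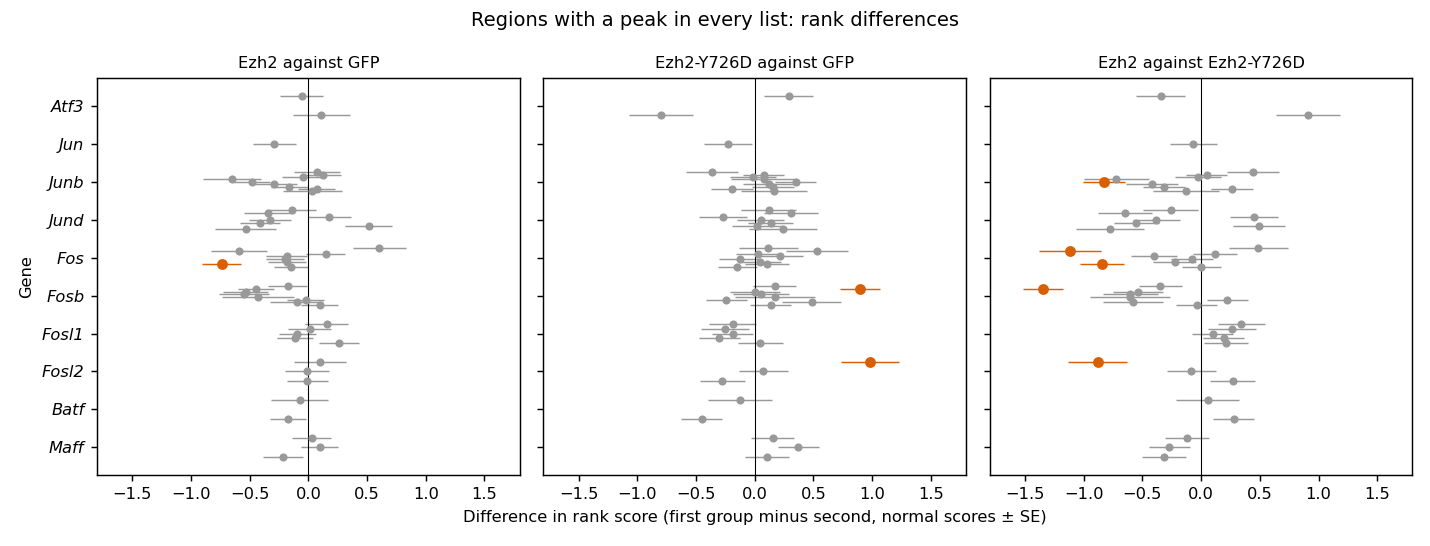
Difference in rank score (normal scores, first group minus second, ± SE) for the 48 regions with a peak in every list, by gene (y axis) and comparison (3 panels). Orange points mark regions called by limma: 1 at Fos in Ezh2 against GFP, 1 at Fosb and 1 at Fosl2 in Ezh2-Y726D against GFP, and 5 in Ezh2 against Ezh2-Y726D, all to the left of 0.

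A region was counted as gained when every list of the first group and no list of the second had a peak in it, and as lost in the reverse case, a count with no test. Ezh2 against GFP gained 2 regions (2.20% of the 91, beside 2.72% of all regions) and lost 1 (1.10%, beside 1.68%). Ezh2-Y726D against GFP gained 2 regions (2.20%, beside 4.77%) and lost 9 (9.89%, beside 4.72%). Ezh2 against Ezh2-Y726D gained 16 regions (17.6%, beside 8.96%) and lost 7 (7.69%, beside 6.14%). The 9 regions lost with Ezh2-Y726D against GFP were also open in each Ezh2 list, a pattern found in 3.61% of all regions. They lay at Atf3 (3 regions), Fosl2 (2), Batf (2), Jund (1) and Fosb (1). Counted at gene ends, the same pattern held for 8 of 20 T cell markers and 6 of 20 markers of microglia and macrophages. It held for 0 of 15 markers in each of the RGC, Müller glia and rod lists. No peak in either Ezh2-Y726D list was found for 11 T cell markers and 15 of microglia and macrophages, some of the latter having none in any list. The share of all genes by this measure is not given. The part of these cells in the lost regions was not tested, and cell makeup and chromatin state within a cell cannot be told apart in sorted pools.

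The gene-start region was taken as the merged region over the promoter of the table, or for Jund as the one nearest to its start. Each value below is the percentile of the region's fold among all peaks of its list. Over 8 members with a gene-start region in every list, the median percentile of fold was 31.9, whereas it was 89.1 over 10881 genes with such a region. Ranked by -log10 p instead, the same medians were 88.6 and 94.8. The regions were wide, with a median of 1962 bp against 1387 bp, and the one at Jun spanned 3771 bp. These starts therefore ranked low by height over the local background. By significance they ranked high among all peaks, with a median still below that of all gene starts.

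**Figure D2:**
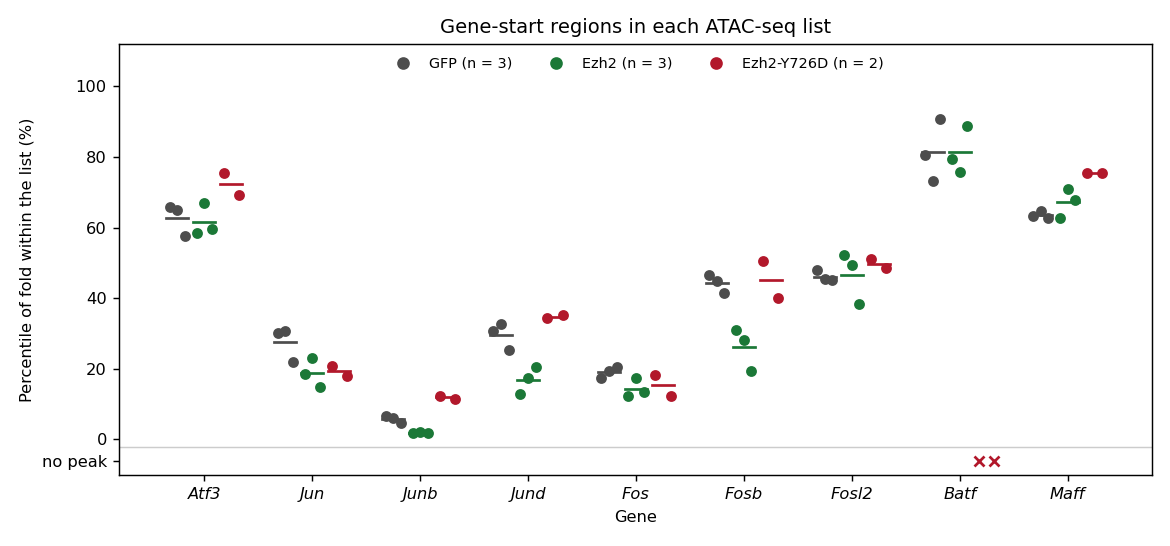
Percentile of fold within the list (y axis, %) of the gene-start region of 9 genes (x axis) in 3 GFP, 3 Ezh2 and 2 Ezh2-Y726D lists, with points for lists, bars for group means and crosses for no peak. Junb ranks lowest, between 1.74 and 12.3, and Batf has peaks at 73.3 to 90.8 with GFP and Ezh2 and no peak with Ezh2-Y726D.

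The number of peaks per gene window was compared with two-sided exact permutation tests over samples, whose smallest possible p was 0.1 in each comparison, so that no single gene could pass 0.05. Groups did not overlap for 0 of 10 genes in Ezh2 against GFP, where 10.7% of all genes did not. In Ezh2-Y726D against GFP the groups were apart for Atf3 alone, which was lower, beside 12.6% of all genes lower. In Ezh2 against Ezh2-Y726D, Atf3, Fosb and Batf were higher and Junb was lower, beside 21.8% of all genes higher and 7.58% lower.

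**Figure D3:**
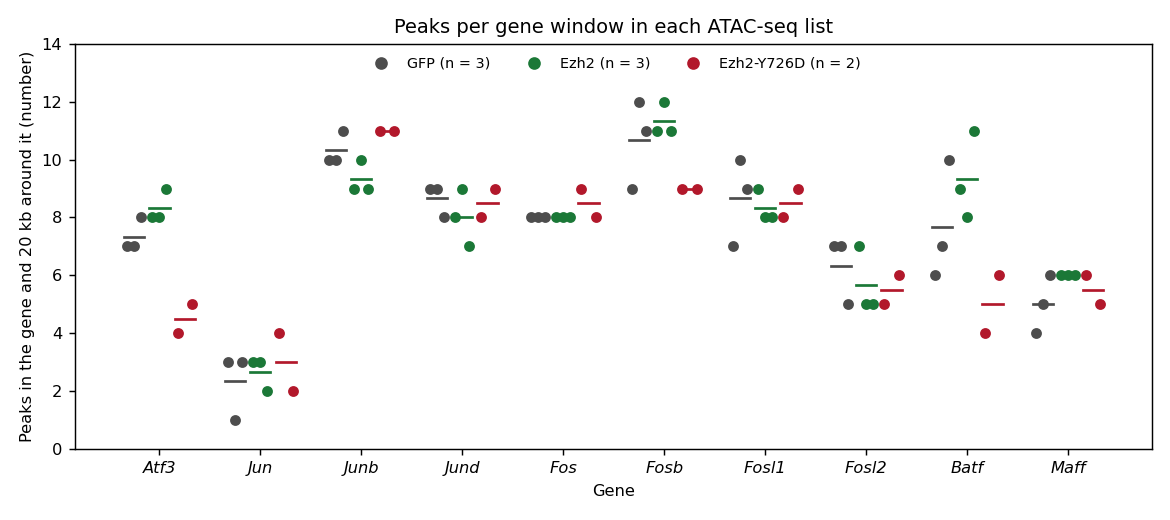
Number of peaks that overlap each gene or the 20 kb around it (y axis) for the 10 genes (x axis), with points for 3 GFP, 3 Ezh2 and 2 Ezh2-Y726D lists and bars for group means. Atf3 has 4 and 5 peaks with Ezh2-Y726D and 7 to 9 in the other lists.

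Atf3 (chr1:191170296-191183333, minus strand), the stress-induced partner of Jun, had 7, 7 and 8 peaks in the GFP lists, 8, 8 and 9 in the Ezh2 lists and 4 and 5 in the Ezh2-Y726D lists. Every Ezh2-Y726D list was below every other list, with means of 7.33 ± 0.58 (SD, n = 3) for GFP, 8.33 ± 0.58 (n = 3) for Ezh2 and 4.50 ± 0.71 (n = 2) for Ezh2-Y726D. The difference from GFP was -2.83 peaks and the exact permutation p was 0.1, the smallest possible. The start of Atf3 (chr1:191182348-191184019) was open in every list, at percentiles of 65.7, 65.1 and 57.6 in the GFP lists, 58.4, 67.1 and 59.6 in the Ezh2 lists and 75.6 and 69.2 in the Ezh2-Y726D lists. Both Ezh2-Y726D lists were above the others here, yet the difference from GFP was not called (rank score 0.29 ± 0.21 (SE), limma adjusted p = 0.437). What was missing with Ezh2-Y726D were 3 regions before the gene. At chr1:191193600-191194417, 10.3 kb before the start, percentiles were 55.6, 58.0 and 74.4 in the GFP lists and 62.9, 75.7 and 72.9 in the Ezh2 lists, with no peak in the Ezh2-Y726D lists. At chr1:191201105-191201831, 17.8 kb before the start, they were 69.5, 70.7 and 69.1 in the GFP lists and 72.8, 71.3 and 77.4 in the Ezh2 lists, again with no Ezh2-Y726D peak. Both were mid-ranked peaks, and both kept this pattern at a −log10 q of at least 5, with lists of equal length and where peaks had to span at least 0.5 of the region. Between them, at chr1:191197955-191198488, a lower-ranked peak stood at 47.8, 31.4 and 37.6 in the GFP lists and 29.1, 6.80 and 15.3 in the Ezh2 lists. This one was no longer lost where peaks had to span at least 0.5 of the region, since 2 of 3 GFP lists then held it. With Ezh2 alone, a peak appeared beyond the end of Atf3 at chr1:191166141-191166656, at 31.1, 25.2 and 5.28 in the Ezh2 lists. Its nearest gene was Fam71a, and it was in 1 of 3 Ezh2 lists at a −log10 q of at least 5.

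**Figure D4:**
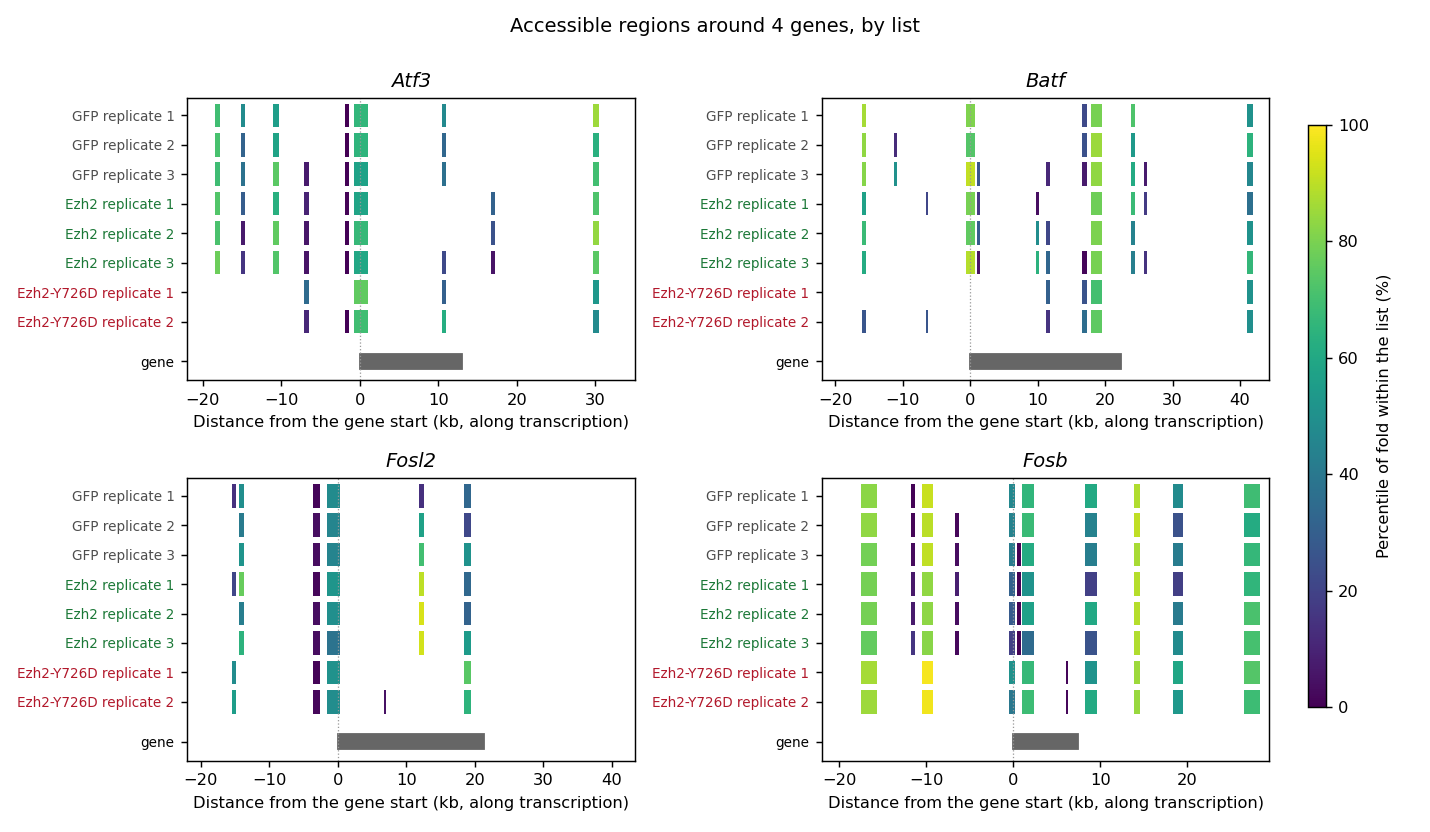
Merged regions around Atf3, Batf, Fosl2 and Fosb in the 8 lists (rows), by distance from the gene start in kb along transcription (x axis), coloured by the percentile of fold within the list, with the gene as a grey bar. Before Atf3 and at the Batf start, regions present in the 6 GFP and Ezh2 lists have no mark in the 2 Ezh2-Y726D rows.

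Among the Jun family, Jun, the core AP-1 subunit that JNK activates, had few peaks, 3, 1 and 3 peaks in the GFP lists, 3, 3 and 2 in the Ezh2 lists and 4 and 2 in the Ezh2-Y726D lists. Its start (chr4:95049936-95053706) was 1 broad region that covered most of the gene and stood at percentiles of 30.1, 30.9 and 21.9 in the GFP lists, 18.6, 23.0 and 14.8 in the Ezh2 lists and 20.8 and 17.9 in the Ezh2-Y726D lists. The Ezh2 lists overlapped both other groups. By percentile the Ezh2-Y726D lists were below all GFP lists, but the tested rank scores of these 2 groups overlapped. No comparison was called, Ezh2-Y726D against GFP (-0.22 ± 0.20 (SE), limma adjusted p = 0.547) and Ezh2 against GFP (-0.29 ± 0.18 (SE), limma adjusted p = 0.426) included. The CRE-like match printed above lies inside this region. A region 10.6 kb before Jun (chr4:95062783-95063223) had a peak in 2 of 3 GFP lists, in 0 Ezh2 lists and in both Ezh2-Y726D lists, the latter at 48.3 and 42.8. In the reverse pattern, a region beyond the end of Jun (chr4:95037924-95038772) had a peak in 1 GFP list, in all 3 Ezh2 lists at 15.1, 18.8 and 64.4 and in no Ezh2-Y726D list, but in 1 Ezh2 list only at the higher −log10 q.

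Junb, a Jun relative that can restrain Jun, had 10, 10 and 11 peaks in the GFP lists, 9, 10 and 9 in the Ezh2 lists and 11 and 11 in the Ezh2-Y726D lists, the lowest numbers being those with Ezh2. Its start region (chr8:84977052-84979057) lay among the lowest peaks by fold, at 6.78, 6.16 and 4.72 in the GFP lists, 1.74, 2.06 and 1.91 in the Ezh2 lists and 12.3 and 11.4 in the Ezh2-Y726D lists. The 3 groups did not overlap, with Ezh2 lowest and Ezh2-Y726D highest. Ezh2 against Ezh2-Y726D was called (-0.83 ± 0.17 (SE), limma adjusted p = 0.0131), while Ezh2 against GFP (-0.48 ± 0.16 (SE), limma adjusted p = 0.118) and Ezh2-Y726D against GFP (0.35 ± 0.17 (SE), limma adjusted p = 0.253) were not. By −log10 p the same region stood at 76.1 to 85.5, and the call was lost under that ranking (adjusted p = 0.103) and without Ezh2-Y726D replicate 1 or 2 (adjusted p = 0.0929 and 0.0568). Of 10068 gene-start regions in the test, 1.94% were called lower with Ezh2 than with Ezh2-Y726D. In the Junb window a small region in the neighbouring gene Hook2 (chr8:84989366-84989724) held peaks in all GFP and Ezh2-Y726D lists, at 6.53 or below, and in 0 Ezh2 lists, and this held under each of the 3 other peak definitions tried.

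Jund, the Jun family member that most cells express without a stimulus, had 9, 9 and 8 peaks in the GFP lists, 8, 9 and 7 in the Ezh2 lists and 8 and 9 in the Ezh2-Y726D lists. Its start region (chr8:70698288-70700362), which begins 549 bp after the annotated start, stood at 30.7, 32.7 and 25.5 in the GFP lists, 12.8, 17.3 and 20.6 in the Ezh2 lists and 34.4 and 35.2 in the Ezh2-Y726D lists. All Ezh2 lists were below all others, and neither the difference from GFP (-0.41 ± 0.17 (SE), limma adjusted p = 0.210) nor that from Ezh2-Y726D (-0.55 ± 0.19 (SE), limma adjusted p = 0.0844) was called. A region 5.7 kb before Jund (chr8:70691683-70692070) was open in both Ezh2-Y726D lists at 3.85 and 16.4 and in no other list, and in 1 Ezh2-Y726D list at the higher −log10 q. The region lost with Ezh2-Y726D in this window (chr8:70719729-70720319) lay in the gene Gm3336, at 12.6, 7.30 and 26.3 in the GFP lists and 56.3, 28.0 and 32.2 in the Ezh2 lists, and had a peak in 1 of 3 GFP lists at a −log10 q of at least 5.

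Among the Fos family, Fos, the classical immediate early gene, had 8 peaks in each GFP and Ezh2 list and 9 and 8 in the Ezh2-Y726D lists. Its start (chr12:85473135-85475170) stood at 17.5, 19.3 and 20.4 in the GFP lists, 12.2, 17.3 and 13.4 in the Ezh2 lists and 18.4 and 12.4 in the Ezh2-Y726D lists. By percentile all Ezh2 lists were just below all GFP lists, with Ezh2-Y726D overlapping both, but the tested rank scores of Ezh2 and GFP overlapped. There was no call (Ezh2 against GFP -0.20 ± 0.16 (SE), limma adjusted p = 0.556). A region 8.6 kb before Fos (chr12:85464277-85465257) was the 1 region of the 48 in all lists that was called in Ezh2 against GFP. Its percentiles were 41.5, 44.0 and 45.1 in the GFP lists, 11.6, 23.6 and 21.1 in the Ezh2 lists and 45.2 and 50.4 in the Ezh2-Y726D lists, the Ezh2 lists being below all others. It fell with Ezh2 against GFP (-0.74 ± 0.17 (SE), limma adjusted p = 0.0364) and was lower with Ezh2 than with Ezh2-Y726D (-0.85 ± 0.19 (SE), limma adjusted p = 0.0154), while Ezh2-Y726D and GFP were close (0.11 ± 0.19 (SE), limma adjusted p = 0.774). The call against GFP was near the threshold. It was lost when 7 of the 8 lists were left out in turn, with adjusted p of 0.0825, 0.109 and 0.0686 without GFP replicate 1, 2 or 3, 0.113 and 0.0888 without Ezh2 replicate 1 or 3, and 0.0542 without either Ezh2-Y726D list. The call against Ezh2-Y726D was lost without Ezh2-Y726D replicate 1 or 2 (adjusted p = 0.0704 and 0.0971) and by −log10 p (0.121). A region 18.1 kb after the Fos start and beyond its end (chr12:85492015-85492608) stood at 46.0, 50.3 and 37.2 in the GFP lists, 18.7, 40.3 and 14.9 in the Ezh2 lists and 59.6 and 66.8 in the Ezh2-Y726D lists. It was lower with Ezh2 than with Ezh2-Y726D (-1.12 ± 0.26 (SE), limma adjusted p = 0.0210) and was not called against GFP in either group. That call was lost without Ezh2 replicate 1 or 3 (adjusted p = 0.0565 and 0.0547), without Ezh2-Y726D replicate 1 or 2 (0.0837 and 0.127) and by −log10 p (0.0925).

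Fosb, which with its short form builds up under lasting stimulation, had 9, 12 and 11 peaks in the GFP lists, 11, 12 and 11 in the Ezh2 lists and 9 and 9 in the Ezh2-Y726D lists. Its start (chr7:19309913-19310614) stood at 46.5, 44.8 and 41.5 in the GFP lists, 31.0, 28.2 and 19.4 in the Ezh2 lists and 50.5 and 40.0 in the Ezh2-Y726D lists, with all Ezh2 lists below all others and no call against GFP (-0.53 ± 0.19 (SE), limma adjusted p = 0.154) or against Ezh2-Y726D (-0.54 ± 0.22 (SE), limma adjusted p = 0.127). The region 9.3 kb before it (chr7:19319375-19320634), whose nearest gene is Fosb, held the largest difference among the 48 regions in all lists. Its folds were 9.36, 9.60 and 9.09 in the GFP lists, 8.05, 7.74 and 7.24 in the Ezh2 lists and 14.1 and 12.9 in the Ezh2-Y726D lists, and its percentiles were 91.5, 89.7 and 90.3 in the GFP lists, 83.4, 83.0 and 82.3 in the Ezh2 lists and 98.7 and 97.9 in the Ezh2-Y726D lists. The 3 groups did not overlap, with Ezh2 lowest, GFP between and Ezh2-Y726D highest. Ezh2 was lower than Ezh2-Y726D (-1.35 ± 0.17 (SE), limma adjusted p = 0.00167), a call that held in all 14 alternatives with adjusted p from 0.00133 to 0.0288. Ezh2-Y726D was higher than GFP (0.90 ± 0.17 (SE), limma adjusted p = 0.0146), which was lost without Ezh2-Y726D replicate 1 (adjusted p = 0.114) and by −log10 p (0.0575). Ezh2 and GFP were apart without a call (-0.45 ± 0.15 (SE), limma adjusted p = 0.132). Less than 1 kb farther out, a small region (chr7:19321431-19321835) had peaks at 0.619, 1.13 and 2.45 in the GFP lists and 6.31, 6.99 and 15.5 in the Ezh2 lists and none with Ezh2-Y726D. It was the lowest-ranked of the 9 lost regions, and 2 of 3 GFP lists held it at a −log10 q of at least 5. Inside the gene, a region 286 bp wide (chr7:19303838-19304123) was open in both Ezh2-Y726D lists, at 1.20 and 1.91, and in no other list under each of the 4 peak definitions. Another 2 small regions, at chr7:19309246-19309748 and chr7:19316322-19316784, had a peak in all 3 Ezh2 lists, in 1 and 2 of the GFP lists and in no Ezh2-Y726D list, and their highest percentile was 8.41.

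Fosl1, the gene of the Fos relative FRA1, had 7, 10 and 9 peaks in the GFP lists, 9, 8 and 8 in the Ezh2 lists and 8 and 9 in the Ezh2-Y726D lists, and 9 of the 10 regions in its window were nearer to another gene. The region over its lower-coordinate end (chr19:5447410-5448970) was among the highest-ranked of the set by fold, at 91.4, 87.2 and 90.0 in the GFP lists, 87.0, 88.8 and 88.7 in the Ezh2 lists and 86.7 and 83.3 in the Ezh2-Y726D lists, with no call in any comparison. A region in the neighbouring gene Ctsw (chr19:5466980-5467656), which codes for a protease of cytotoxic lymphocytes, had a peak in 1 GFP list at 19.6, in all 3 Ezh2 lists at 36.6, 27.1 and 38.4 and in no Ezh2-Y726D list. Another 2 regions had a peak in 2 of 3 GFP lists and both Ezh2-Y726D lists and in no Ezh2 list, at chr19:5429863-5430174 and chr19:5463807-5464385, all at 18.4 or below.

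Fosl2, the gene of FRA2, had 7, 7 and 5 peaks in the GFP lists, 7, 5 and 5 in the Ezh2 lists and 5 and 6 in the Ezh2-Y726D lists. Its start (chr5:32134926-32136842) differed little between groups, at 47.9, 45.3 and 45.2 in the GFP lists, 52.2, 49.5 and 38.3 in the Ezh2 lists and 51.0 and 48.6 in the Ezh2-Y726D lists. Inside the gene, 2 regions differed between groups in opposite ways. At chr5:32148294-32149130, 11.8 kb after the start, folds were 3.30, 5.44 and 6.12 in the GFP lists and 9.38, 10.4 and 9.56 in the Ezh2 lists, percentiles were 13.8, 57.1 and 69.5 in the GFP lists and 90.2, 94.1 and 93.2 in the Ezh2 lists, and neither Ezh2-Y726D list had a peak. All Ezh2 lists were above all GFP lists, which spread widely. The region was outside the main test because it was not in every list, and in a fit over regions in at least 5 lists Ezh2 against GFP missed the threshold (1.64 ± 0.38, SE, limma adjusted p = 0.0565). Its loss with Ezh2-Y726D against GFP ended where peaks had to span at least 0.5 of the region, since 1 GFP list then held it, and at a −log10 q of at least 5, where 2 did. The loss against Ezh2 held under both. At chr5:32154914-32155857, 18.4 kb after the start, percentiles were 33.0, 21.7 and 50.9 in the GFP lists, 33.5, 31.3 and 54.5 in the Ezh2 lists and 73.8 and 64.8 in the Ezh2-Y726D lists. Both Ezh2-Y726D lists were above all others, and the region rose with Ezh2-Y726D against GFP (0.98 ± 0.25 (SE), limma adjusted p = 0.0393) and was lower with Ezh2 than with Ezh2-Y726D (-0.88 ± 0.25 (SE), limma adjusted p = 0.0419). Both calls were near the threshold. The first was lost without GFP replicate 1 or 2 (adjusted p = 0.0872 and 0.103), without Ezh2 replicate 1 (0.0505) without Ezh2-Y726D replicate 1 or 2 (0.235 and 0.0946) and over regions in at least 5 lists (0.0991). The second was lost without GFP replicate 1 (0.0548), Ezh2 replicate 1 or 2 (0.101 and 0.109) and Ezh2-Y726D replicate 1 or 2 (0.241 and 0.0901), by −log10 p (0.0569) and over regions in at least 5 lists (0.0939). A region 13.7 kb before the gene (chr5:32122104-32122776) was among the 9 lost with Ezh2-Y726D, at 49.1, 41.4 and 51.9 in the GFP lists and 76.6, 42.4 and 64.4 in the Ezh2 lists, and 2 of 3 GFP lists held it under that stricter overlap.

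**Figure D5:**
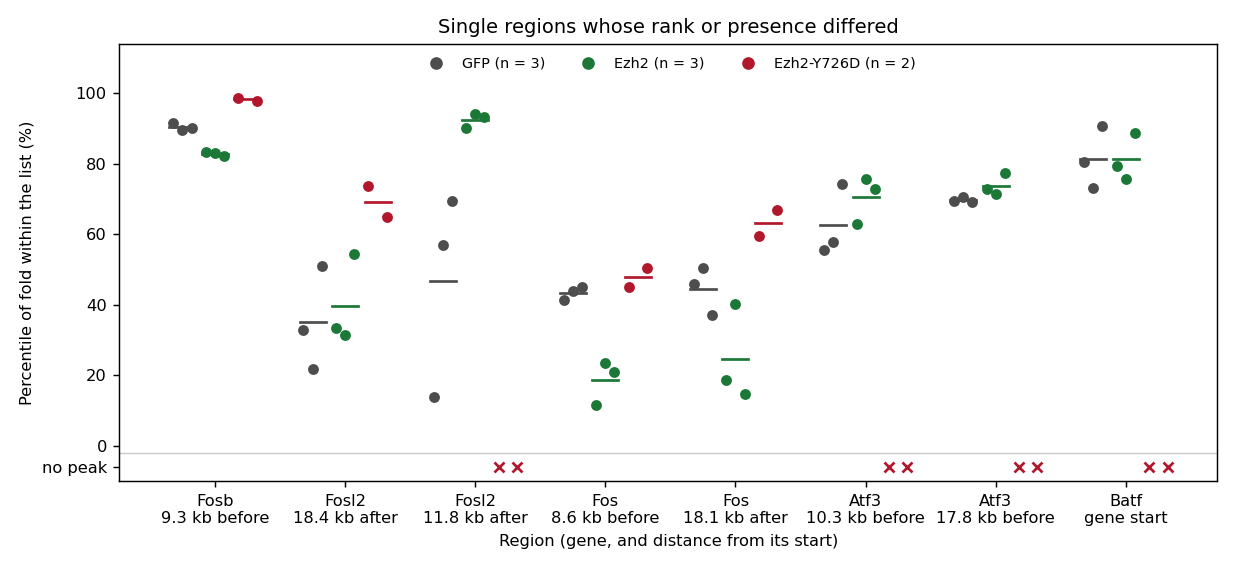
Percentile of fold within the list (y axis, %) for 8 regions (x axis, with the distance from the gene start), with points for 3 GFP, 3 Ezh2 and 2 Ezh2-Y726D lists, bars for group means and crosses for no peak. At Fosb the Ezh2-Y726D lists lie at 98.7 and 97.9 and the Ezh2 lists at 82.3 to 83.4, and at Batf, Atf3 and 1 Fosl2 region the Ezh2-Y726D lists have no peak.

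Batf, an AP-1 factor without a transactivation domain that pairs with Jun proteins and is best known in T and B cells, had 6, 7 and 10 peaks in the GFP lists, 9, 8 and 11 in the Ezh2 lists and 4 and 6 in the Ezh2-Y726D lists. Every Ezh2 list was above both Ezh2-Y726D lists (exact permutation p = 0.1, the smallest possible), and GFP overlapped both. Its start (chr12:85686155-85687404), which covers the promoter printed above, stood at 80.6, 73.3 and 90.8 in the GFP lists and 79.4, 75.8 and 88.7 in the Ezh2 lists. Neither Ezh2-Y726D list had a peak there, and this held under all 4 peak definitions. Batf was the only member whose start was lost with Ezh2-Y726D against GFP, as was the case for 1.72% of 11808 genes with a gene-start region. Just beyond its end, a region (chr12:85710590-85711169) followed the same pattern at 72.1, 53.7 and 60.7 in the GFP lists and 67.8, 44.5 and 42.9 in the Ezh2 lists and held under the same definitions. A region 15.5 kb before the start (chr12:85670615-85671200) had no overlap between groups, at 86.5, 83.3 and 81.8 in the GFP lists, 57.4, 67.9 and 61.3 in the Ezh2 lists and 26.5 in Ezh2-Y726D replicate 2, with no peak in replicate 1. It is named after its values were seen, as is the last region of this gene. In the fit over regions in at least 5 lists, Ezh2 against GFP missed the threshold (-0.80 ± 0.18 (SE), limma adjusted p = 0.0501). With 1 Ezh2-Y726D peak only, the other differences are given as sizes alone. They were -1.87 for Ezh2-Y726D against GFP and 1.07 for Ezh2 against Ezh2-Y726D. With Ezh2 alone, a region 9.7 kb into the gene (chr12:85696425-85696858) had a peak in all 3 lists, at 3.64, 48.8 and 63.7, and in 2 of them at a −log10 q of at least 5. A region just after the Batf start (chr12:85687713-85688198) had a peak in GFP replicate 3 at 26.3, in all 3 Ezh2 lists at 17.1, 28.9 and 4.86 and in no Ezh2-Y726D list. The last, a region 18.0 kb into the gene (chr12:85704684-85706206), was open in all lists at 79.4, 84.9 and 83.2 in the GFP lists, 77.8, 80.1 and 79.6 in the Ezh2 lists and 70.2 and 75.4 in the Ezh2-Y726D lists, with no call. The presence pattern of the Batf start was also that of 8 of 20 T cell markers and 6 of 20 markers of microglia and macrophages. Other T cell markers, Cd3e and Cd4 among them, had a peak in every list. The part of these cells in the loss of the Batf start was not tested.

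Maff, a small Maf factor without a transactivation domain that pairs with the Nrf and Bach factors, had 4, 5 and 6 peaks in the GFP lists, 6, 6 and 6 in the Ezh2 lists and 6 and 5 in the Ezh2-Y726D lists. Its start region (chr15:79346980-79348563), which holds annotated starts 2 and 3 and both CRE-like matches, stood at 63.3, 64.8 and 62.8 in the GFP lists, 62.7, 71.0 and 67.8 in the Ezh2 lists and 75.4 and 75.5 in the Ezh2-Y726D lists. Both Ezh2-Y726D lists were above all others, and the difference from GFP was not called (0.37 ± 0.18 (SE), limma adjusted p = 0.228). A region 8.5 kb into the gene (chr15:79356936-79358268) ranked higher than the start in every list, at 77.6 to 87.8, and is named after its values were seen. In the neighbouring gene Tmem184b, a region (chr15:79377670-79378116) had a peak in 2 of 3 GFP lists, in both Ezh2-Y726D lists and in no Ezh2 list.

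Gene lists around these factors were counted at their gene-start regions, where the promoter table had them, and described beside all gene starts with no test of the list. Of 22 other basic leucine zipper factors, 16 had a gene-start region in every list. Of these, 0 were called in Ezh2 against GFP, where 0.189% of 10068 gene starts were higher and 0.278% lower, 0 were called in Ezh2-Y726D against GFP, where 0.407% were higher and 1.08% lower, and 1 was lower with Ezh2 than with Ezh2-Y726D, where 2.49% were higher and 1.94% lower. It was Batf3, a Batf relative needed for a class of dendritic cells (-1.001 ± 0.20, SE, limma adjusted p = 0.0106). Counted at either gene end instead, 21 to 22 of the 22 had a peak in each list, and Batf2 was the 1 gene with a peak in all 6 GFP and Ezh2 lists but in no Ezh2-Y726D list. Of 12 genes of the JNK pathway, 10 were tested at their start and 0 were called in any of the 3 comparisons. Of 14 injury-response genes known to follow Jun or Atf3, such as Gap43 and Sox11, 10 were tested and 0 were called. Sprr1a, a classical gene of regrowing neurons, had a peak at a gene end in Ezh2 replicates 2 and 3 and in no other list, and is named after its values were seen, as is Batf2. Of 20 other immediate early genes, 15 were tested and 0 were called against GFP with Ezh2 or Ezh2-Y726D. In Ezh2 against Ezh2-Y726D, Egr4 was higher with Ezh2 (0.65 ± 0.17, adjusted p = 0.0322), and Zfp36 (-0.76 ± 0.23, adjusted p = 0.0493) and Klf2 (-0.74 ± 0.20, adjusted p = 0.0381) were lower. For the 4 lists, median differences of the rank score in Ezh2 against GFP were -0.11, -0.12, -0.01 and -0.25, in the order given, beside -0.04 over all gene starts. In Ezh2-Y726D against GFP they were -0.06, -0.24, -0.13 and -0.02, beside -0.10, and in Ezh2 against Ezh2-Y726D they were -0.03, 0.16, 0.10 and -0.26, beside 0.08.

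The gene-start regions most like that of Atf3 over the 8 lists were those of Daxx, Zfp787 and Mdm2, with Pearson correlations of rank scores of 0.977, 0.968 and 0.966 among 10881 genes. For Jun they were those of Isca1, Atp8b2 and Ivns1abp, with correlations of 0.986, 0.977 and 0.976. These are the highest of many values over 8 lists that share their groups, and they are given as a description only.

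The border of the windows fell between a region 19950 bp from Jund (chr8:70720566-70721256), at percentiles of 48.7 to 73.0, which was counted, and a region 20004 bp from Batf (chr12:85729091-85730285), at 35.4 to 80.0, which was not.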

How the data were processed

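ATAC-seq peak lists of 3 AAV2-GFP, 3 Ezh2 and 2 Ezh2-Y726D samples were used, 1 list per sample. The submitters' processing notes name cutadapt, Bowtie2, SAMtools, Picard, MACS2 and deepTools, with no versions used here, and GRCm38, and the tags in the peak names show that reads were filtered by mapping quality, sorted and freed of duplicates. Peaks were called for each sample on its own. The authors deposited for each peak its fold over background (a ratio), its −log10 p and −log10 q, a score that is 10 times the −log10 q without decimals, and its summit. The lowest deposited −log10 q was 1.31 to 1.38 per list. The lists give no read numbers, so that the depth and the precision it gives are unknown.

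From these files, peaks that overlapped between lists by 1 bp or more were joined into regions, ranks of fold within a list were turned into normal scores, and the 69493 regions with a peak in every list were fitted with limma 3.58.1 (R 4.3.3) over all 8 samples, with Benjamini-Hochberg adjustment and a call under 0.05. Where several peaks of a list fell into 1 region, the highest was ranked. Presence was counted over all 189914 regions, and peaks per gene over 21887 protein-coding genes with two-sided exact permutation tests in Python 3.11.15. The merging and the fit were tested on simulated data. Where nothing says that samples came from separate animals, p-values measure only the spread between these samples. Gene coordinates and promoters came from RefSeq on GRCm38.p6. The Ezh2-Y726D replicates 1 and 2 carry the numbers 2 and 3 in their peak names.

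The members, lists and tests were chosen with earlier results of these data known. All 10 genes were named, 9 with their gene-start region and Fosl1 with the region over its lower-coordinate end, and other regions where limma called them or where they were gained or lost. Of the lists, at most 3 genes with a called gene start were named. Genes and regions named otherwise are marked as such. Marker genes were counted at a peak within 1 kb of either gene end, a measure chosen after seeing the files. The alternatives were ranking by −log10 p, regions in at least 5 lists, a −log10 q of at least 5, lists of equal length, peaks that span at least 0.5 of a region, windows of 5 and 50 kb, the gene alone, nearest genes, a replicate block and each list left out.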

Additional observations from a re-analysis of the deposited data

How the results depend on the processing

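Counts over the 10 windows are given in the order Ezh2 against GFP (comparison 1), Ezh2-Y726D against GFP (comparison 2) and, as comparison 3, Ezh2 against Ezh2-Y726D. Regions called by rank numbered 1, 2 and 5. They numbered 0, 1 and 2 in windows of 5 kb and in the gene alone, and 3, 10 and 14 in windows of 50 kb. These windows held 21, 14 and 99 regions in all lists, against 48 in the main windows. The shares called over all regions, 4.44%, 8.21% and 14.0%, do not depend on the window. Ranking by −log10 p and a −log10 q of at least 5 each left 1 call in comparison 2. Ranked by −log10 p, comparison 3 had 3 calls higher and 1 lower in place of 5 lower. Calls over all regions went from 4862 higher and 4837 lower to 5885 higher and 3979 lower. Regions gained or lost numbered 3, 11 and 23. They numbered 4 and 8 in comparisons 2 and 3 with 5 kb, 9, 21 and 39 with 50 kb, and 1, 3 and 6 in the gene alone. These windows held 36, 187 and 25 regions, against 91 in the main windows. Over all regions, 2.72%, 4.77% and 8.96% were gained and 1.68%, 4.72% and 6.14% were lost, whatever the window. In comparison 1 regions gained or lost numbered 5 where peaks had to span at least 0.5 of a region, 1 at a −log10 q of at least 5 and 1 for regions nearest to a member. The shares of all genes without overlap, given above, are for windows of 20 kb alone. Of the 10 genes, those without overlap in peak numbers numbered 0, 1 and 4. They numbered 1, 4 and 7 with 50 kb, 0 in comparison 2 and 1 in comparison 3 with the gene alone, and 1 in comparison 3 with 5 kb. In comparison 2 they numbered 2 at a −log10 q of at least 5, 2 with lists of equal length and 2 for nearest genes. The difference in Atf3 peaks, Ezh2 minus Ezh2-Y726D, was 3.83 in the window and -0.67 in the gene alone, which holds fewer regions, so that its sign depended on the window.

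Without either Ezh2-Y726D list, the lone list of that group is assumed to vary like the other groups. With each list left out in turn, calls ranged from 0 to 1, from 0 to 2 and from 1 to 6. Calls over all 69493 regions also fell in each comparison, whichever list was left out. Without 1 GFP or Ezh2 list they went from 3083 to between 1166 and 2121 in comparison 1. They went from 5702 to between 3356 and 5477 in comparison 2, and from 9699 to between 6665 and 9394 in comparison 3. Within the 10 windows, the 1 call of comparison 1 stayed only without Ezh2 replicate 2. In comparison 2, 0 stayed without Ezh2-Y726D replicate 1, and 1 stayed without GFP replicate 1 or 2, Ezh2 replicate 1 or Ezh2-Y726D replicate 2. In comparison 3, 1 stayed without Ezh2-Y726D replicate 1 or 2, and 3 without Ezh2 replicate 1. Regions gained or lost ranged from 4 to 10, from 11 to 15 and from 25 to 27, with 10 without GFP replicate 3, 6 without GFP replicate 1 and 5 without Ezh2 replicate 3 in comparison 1. Genes without overlap ranged from 0 to 3, from 1 to 4 and from 4 to 6. In comparison 1, 3 came without GFP replicate 3 and 1 without Ezh2 replicate 2. In comparison 2, 4 came without Ezh2-Y726D replicate 2 and 3 without GFP replicate 1 or 3. The cause of these changes was not tested, beyond the number of samples and regions.

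Deviations of GFP and Ezh2 samples with the same replicate number were weakly correlated (0.005, 0.033 and 0.048). Each value was the highest of its GFP list, and pairs of unlike number ranged from -0.048 to 0.016. Whether the numbers pair the samples cannot be told from values this small. With the title's replicate number as a block, 0 regions were called in comparison 1 and 2 in comparison 2. With the number in the peak names as a block, 0 and 1 were called. The call before Fos against GFP was lost under both blocks (adjusted p = 0.0561 and 0.0619), and both calls in Fosl2 were lost with the peak-name numbers (0.0849 and 0.0853). Depth is unknown, and a missing peak does not show closed chromatin.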
